A study of Mus musculus with 15 samples.

Results

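The genes described here are those whose liver RNA was higher than in vehicle-treated mice under each of 4 hormonal treatments. They were selected on these same livers: from a table of 2545 genes, a gene was chosen by its group means when the means under E2, CE, BZA and CE+BZA each exceeded the Veh mean by more than 1 on the log2 scale, a change of 2-fold. The rule was met by 48 genes (1.89% of the table), and 40 remained after 8 genes were left out by name, among them 4 solute carriers. Because the differences from Veh chose the genes, they are given as a description and carry no test. The 15 livers came from female C57BL/6J mice (C57BL/6 in the labels) on a high-fat diet from 8 weeks of age that were ovariectomized at 10 weeks, so that all groups lacked ovarian estrogen and shared the diet. For 6 weeks, 3 mice received vehicle only (Veh), 3 received 17β-estradiol (E2) at 5 µg/kg per day, 3 received conjugated estrogens (CE) at 2.5 mg/kg per day, 3 received bazedoxifene (BZA) at 3 mg/kg per day, and 3 received CE and BZA together (CE+BZA). The doses are as stated in the paper. It describes slow-release pellets for E2 and osmotic minipumps for CE, so E2 and CE differed in delivery as well as in ligand. These are whole-liver RNA-seq values from 1 liver per mouse, and no untreated mouse with ovaries was analysed here.

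Estradiol and the conjugated estrogens activate the estrogen receptors, transcription factors that bind DNA once a ligand is in place. Estrogen receptor α is the main form in hepatocytes. Bazedoxifene is a selective estrogen receptor modulator, a ligand that opposes estrogen in the uterus and acts like it in bone, and its pairing with CE is used in women after menopause. In whole liver, RNA comes mostly from hepatocytes, with smaller contributions from bile ducts, vessels, immune cells and the mesothelium, the thin epithelium that covers the surface of the organ.

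Each deposited value is a log2 normalised expression value set against the gene's own median across all 15 mice, so that a value of 0 is the median liver and a difference of 1 is 2-fold. All 2545 genes of the table had a mean difference from Veh beyond 1 in at least 1 treatment, so that the background shares given below come from genes that had all passed such a filter. Read totals per mouse are not in the table. From the spacing of low values, 1 read was worth 0.839 to 1.14 normalised counts, a narrow range. A common lowest value was shared by at least 2 mice in 1045 of the 2545 genes and in 12 of the 40. Some livers stood apart in genes that mark other cells. The mean of 5 neutrophil markers was 5.68 in CE mouse 3, and in BZA mouse 3 that of 7 adipocyte markers was 3.67 and that of 3 pancreas markers 6.12. Endothelial markers were not in the table (0 of 7), and of 9 hepatocyte markers only the amino acid enzyme Tat was listed.

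Most of the 40 genes lay below their own median in each Veh liver. In CE mouse 6 and BZA mouse 4 the median over the 40 genes was also slightly below 0, at -0.14 and -0.17, and it was above 0 in the other treated livers. Their median value was -1.56, -1.25 and -1.43 in Veh mice 1, 4 and 7, and lay between -0.17 and 0.65 in the 12 treated mice. The median difference from Veh over the 40 genes was 1.53 under E2, 1.63 under CE, 1.68 under BZA and 1.67 under CE+BZA, where the median over all 2545 genes was 0.00, 0.06, 0.11 and 0.08. The lowest of the 15 values was in Veh mice alone for 31 of the 40 genes: in mouse 1 alone for 12, in mouse 7 alone for 11, in mouse 4 alone for 4 and in several of them for 4. Veh and treated mice shared the lowest value for 8 genes, and for 1 gene, Htra4, it was in a treated mouse alone. The highest value fell most often in CE mouse 3, for 10 genes, followed by BZA mouse 1 for 8 and E2 mouse 3 for 6. The same shares over the table were not counted. The median over all 2545 genes was 0.12 in CE mouse 3, the highest of the 15 mice, 0.03 in BZA mouse 1 and 0.00 in E2 mouse 3. The same mice within a group did not move all genes alike, and the heat map of the 40 genes shows single livers that differ strongly from the other 2 of their group.

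**Figure D1:**
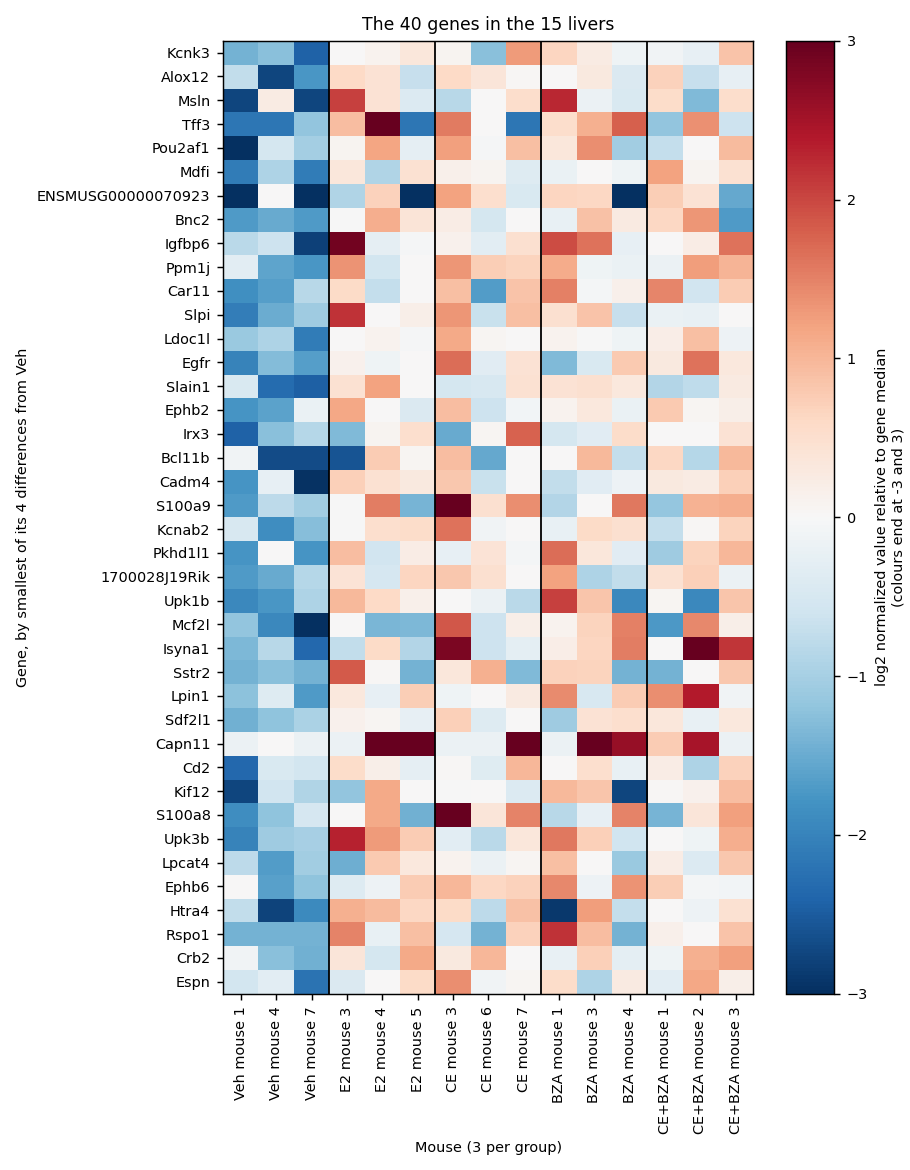
Log2 normalised value of each of the 40 genes (rows) in each of the 15 livers (columns, 3 mice per group), relative to the median of the gene. Genes are ordered by the smallest of their 4 differences from Veh. The 3 Veh columns are mostly blue, and the strongest red cells are single livers, such as CE mouse 3 for S100a8 and S100a9.

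All 12 treated mice were above all 3 Veh mice for only 6 of the 40 genes, Alox12, Mdfi, Igfbp6, Slpi, Ldoc1l and Upk3b. Among all 2545 genes, 32 were separated in this way (1.26%). Another 11 of the 40 genes had 11 treated mice above the highest Veh mouse, 7 had 10, and 16 had 9 or fewer, with the lowest count of 6 for Msln. Treatment by treatment, the 3 treated mice lay above the 3 Veh mice for 21 of the 40 genes under E2, 25 under CE, 17 under BZA and 21 under CE+BZA. The shares of the table were 10.3%, 13%, 10.5% and 14.8%. These counts rest on the same Veh mice and on the contrast that chose the genes, and nothing is drawn from them. The spread between mice was wide, with a median SD over the 40 genes of 0.71 for Veh, 0.77 for E2, 0.72 for CE, 0.87 for BZA and 0.76 for CE+BZA, against 0.60, 0.62, 0.64, 0.70 and 0.57 over the table.

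**Figure D2:**
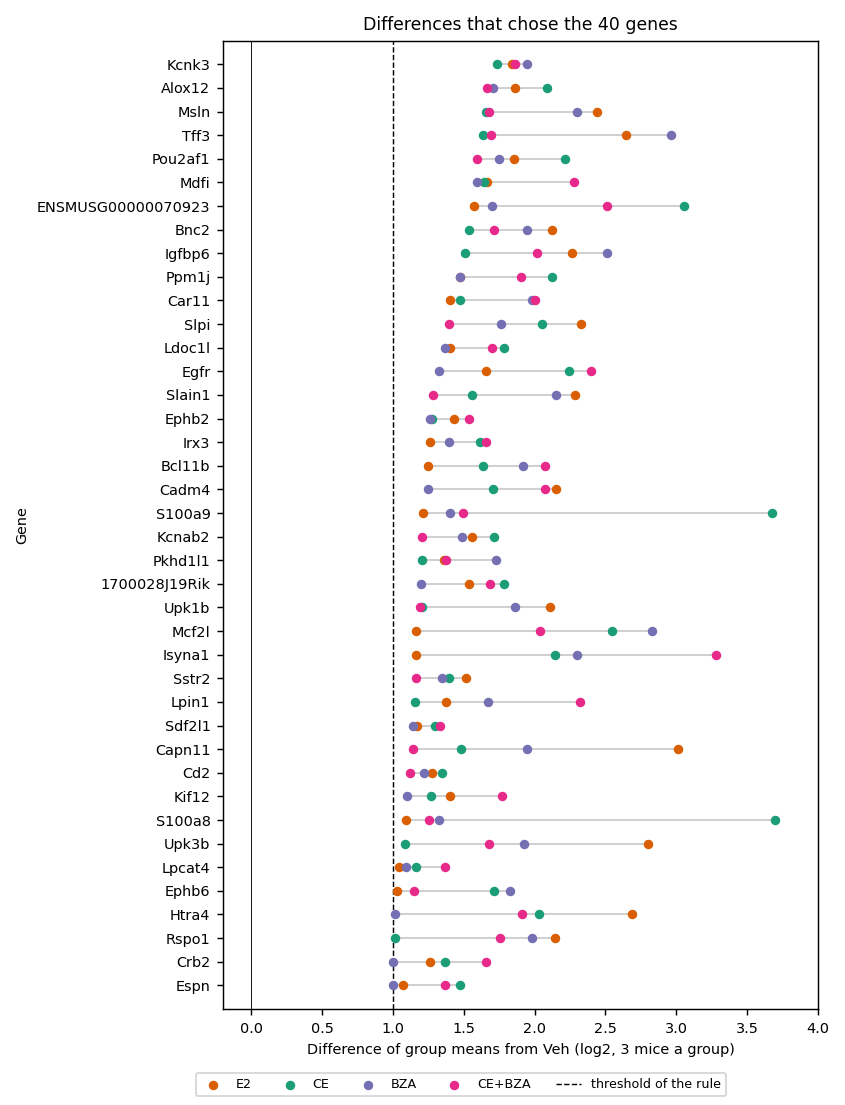
Difference of each treatment mean from the Veh mean (log2 scale, 3 mice per group) for the 40 genes. Points are treatments, grey lines join the smallest and the largest of the 4, and the dashed line is the threshold of 1. The differences of Sdf2l1 and Kcnk3 lie close together, and the CE points of S100a8 and S100a9 stand apart.

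The 40 genes were spread over 14 chromosomes, and all were annotated as protein-coding in the GRCm38 (mm10) annotation. Promoter sequences from RefSeq on GRCm38 were found for 33 of the 40, with 44 start sites in all, and the 250 bases before each were searched on both strands. Some genes gave several start sites. None was found for Kcnk3, Msln, Tff3, Cd2, Htra4, Pkhd1l1 and Upk1b. The palindromic estrogen response element GGTCANNNTGACC was in 0 of the 44, against 0.0639% of 32851 mouse promoters. At so low a share almost any set of 44 would hold 0, and nothing is drawn from this count. The single hexamer AGGTCA, which forms an arm of that element, was in 3 of the 44 (6.82%), against 14.0% of all, and belonged to Upk3b, Lpin1 and 1700028J19Rik. The AP-1 motif TGANTCA was in 0 of the 44, against 6.75%. The hexamer also lies within motifs of other nuclear receptors, and a match to letters is not a bound site. The promoters of Upk3b and Lpin1 are printed 5′ to 3′ on the strand of the gene, since both genes gave the smallest p of the 40 in a comparison of treatments and hold the hexamer, which is in capitals and begins 155 and 74 bases before the start.
Upk3b, chr5:136038246-136038495, plus strand: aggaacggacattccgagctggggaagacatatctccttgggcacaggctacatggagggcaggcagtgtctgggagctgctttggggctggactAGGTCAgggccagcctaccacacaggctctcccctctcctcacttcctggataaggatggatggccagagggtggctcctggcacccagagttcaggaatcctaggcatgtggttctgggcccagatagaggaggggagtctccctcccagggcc
Lpin1, chr12:16610967-16611216, minus strand: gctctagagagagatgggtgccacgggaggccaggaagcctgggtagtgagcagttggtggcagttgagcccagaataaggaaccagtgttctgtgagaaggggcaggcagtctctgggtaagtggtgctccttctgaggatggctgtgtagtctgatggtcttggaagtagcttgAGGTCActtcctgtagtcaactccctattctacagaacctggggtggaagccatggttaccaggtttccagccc

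The genes are taken below by what their products do, a grouping made after the names were known. The first group gathers genes linked to surface-lining epithelium, and which cells made their RNA in these livers was not measured. Msln encodes mesothelin, a surface glycoprotein of the mesothelium. Upk3b and Upk1b encode uroplakins, membrane proteins of urothelium that the mesothelium also carries, and Rspo1 encodes a secreted enhancer of Wnt signalling. These values are per whole liver, so that a change in the number of cells of a type and a change in RNA per cell cannot be told apart.

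Msln had values of -2.75, 0.24 and -2.75 in the Veh livers, 2.04, 0.44 and -0.41 with E2, -0.82, 0.00 and 0.53 with CE, 2.27, -0.17 and -0.46 with BZA, and 0.56, -1.32 and 0.53 with CE+BZA, with mice in ascending order of their numbers here and below. Veh mouse 4 was thus above 6 of the 12 treated mice, while the other Veh mice were at the lowest value. Mean differences from Veh were 2.44 under E2, 1.65 under CE, 2.30 under BZA and 1.67 under CE+BZA. Without E2 mouse 3 the E2 difference was 1.77, and without BZA mouse 1 the BZA difference was 1.44. Without Veh mouse 4 the CE and CE+BZA differences were 2.65 and 2.67.

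Upk3b had values of -1.99, -1.07 and -0.99 in the Veh livers, 2.31, 1.27 and 0.76 with E2, -0.32, -0.82 and 0.34 with CE, 1.59, 0.72 and -0.60 with BZA, and 0.00, -0.12 and 1.08 with CE+BZA. Every treated liver was above every Veh liver, and E2 mouse 3 was the highest. The mean differences were 2.80 under E2, 1.09 under CE, 1.92 under BZA and 1.67 under CE+BZA, and the E2 difference was 2.37 without E2 mouse 3. Upk3b was the gene with the smallest p in the comparison of E2 with CE: it was higher under E2 by 1.71 (SE 0.62, limma, unadjusted p = 0.014, FDR = 0.47). The 3 E2 livers were all above the 3 CE livers, although the difference did not pass the correction over the table.

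Upk1b had values of -1.92, -1.75 and -0.93 in the Veh livers, 0.98, 0.59 and 0.15 with E2, 0.00, -0.17 and -0.82 with CE, 2.05, 0.84 and -1.92 with BZA, and 0.06, -1.92 and 0.84 with CE+BZA. BZA mouse 4 and CE+BZA mouse 2 were at the lowest value with Veh mouse 1. The differences were 1.19 to 2.11, with a BZA difference of 1.86 that became 0.99 without BZA mouse 1. Rspo1 had values of -1.43, -1.43 and -1.43 in the Veh livers, 1.48, -0.23 and 0.91 with E2, -0.50, -1.43 and 0.70 with CE, 2.16, 0.93 and -1.43 with BZA, and 0.14, 0.00 and 0.85 with CE+BZA. It was at the lowest value in all 3 Veh mice, in CE mouse 6 and in BZA mouse 4, and differed by 1.02 to 2.14, with a CE difference of 0.46 without CE mouse 7. Both were carried by very few reads. The reads estimated for Rspo1 from the spacing of its values, where 0 and 1 read share the lowest value, were 1, 0 and 1 in the Veh livers, 7, 2 and 6 with E2, 2, 0 and 4 with CE, 13, 6 and 1 with BZA, and 3, 3 and 5 with CE+BZA. BZA mouse 1, at 13 reads, was the highest.

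A mesothelial list was chosen after the 40 genes were known. Of its 12 genes, 9 were in the table, the 4 above among them, and the mean of the 9 was -1.17 to -0.58 among Veh mice, 0.27 to 1.53 with E2, -0.47 to -0.29 with CE, -0.78 to 1.90 with BZA and -0.76 to 0.91 with CE+BZA. Wt1, a transcription factor of the mesothelium, was 1.004 in Veh mouse 4 and -0.65 in E2 mouse 3, and did not follow the order of Msln. Nkain4, by contrast, was 1.99 in E2 mouse 3 and 1.92 in BZA mouse 1, the mice with the most Msln. The highest of the list means were in BZA mouse 1, at 1.90, and in E2 mouse 3, at 1.53. In BZA mouse 1 the mean of the 2 bile duct markers was 2.25 (Krt19 at 2.99, which is on both lists, and Krt7 at 1.51) and that of the 2 stellate cell and fibroblast markers 1.47, each the highest of the 15 mice. Of the 9 mesothelial genes 6 were above Veh in all 4 treatments, where 30.5% of the table was. The rule itself placed 4 of the 6 there, so these shares cannot be compared, and the list means hold those 4 genes too. Of the rest, Bnc1 and Nkain4 were above Veh in all 4, and the means of Wt1, Krt19 and Cldn15 under CE were below the Veh mean. How much surface tissue each piece of liver held was not measured, and its part in these differences was not tested.

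Igfbp6 and Slpi were high in part of the same livers. Igfbp6, which binds insulin-like growth factors, had values of -0.80, -0.62 and -2.79 in the Veh livers, 2.89, -0.28 and -0.04 with E2, 0.13, -0.31 and 0.48 with CE, 1.95, 1.62 and -0.24 with BZA, and 0.00, 0.22 and 1.62 with CE+BZA. All treated livers were above the Veh livers, and the estimated reads were 4, 4 and 1 in the Veh livers, 48, 5 and 8 with E2, 8, 5 and 9 with CE, 29, 25 and 6 with BZA, and 7, 9 and 22 with CE+BZA. The reads ran from 0 or 1 in Veh mouse 7, which was at the lowest value, to 48 in E2 mouse 3. Mean differences were 2.26 under E2, 1.51 under CE, 2.51 under BZA and 2.02 under CE+BZA, and the E2 difference was 1.24 without E2 mouse 3. Without Veh mouse 7 the CE difference was 0.81 and the CE+BZA difference 1.32.

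Slpi encodes a secreted inhibitor of neutrophil proteases made by epithelia. Its values were -2.08, -1.48 and -1.07 in the Veh livers, 2.17, 0.00 and 0.18 with E2, 1.32, -0.68 and 0.90 with CE, 0.48, 0.85 and -0.69 with BZA, and -0.21, -0.23 and 0.00 with CE+BZA. Again no treated liver fell among the Veh livers, and E2 mouse 3 was highest. The mean differences were 2.33 under E2, 2.05 under CE, 1.76 under BZA and 1.40 under CE+BZA, and that under E2 was 1.63 without E2 mouse 3. Bnc2, a zinc finger protein of epithelial and stromal cells, had values of -1.69, -1.52 and -1.69 in the Veh livers, -0.01, 1.09 and 0.38 with E2, 0.23, -0.53 and 0.00 with CE, -0.22, 0.88 and 0.28 with BZA, and 0.61, 1.32 and -1.69 with CE+BZA. CE+BZA mouse 3 was at the same lowest value as Veh mice 1 and 7, and the other 11 treated mice were above all Veh mice, with differences of 1.54 to 2.12. Crb2, a protein of epithelial cell polarity, differed by 1.001 to 1.65 and was just inside the threshold under BZA.

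**Figure D3:**
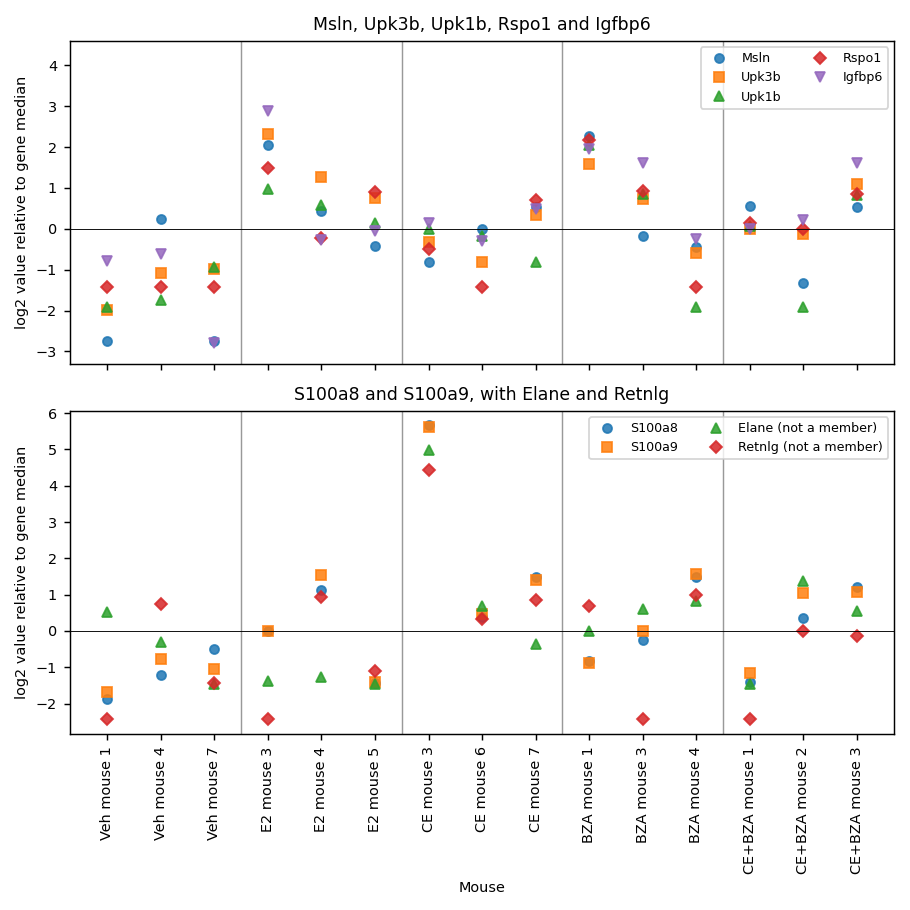
Log2 value relative to the gene median in each of the 15 livers, for 5 genes of the first group (upper panel) and for S100a8 and S100a9 with 2 further neutrophil genes that are not among the 40 (lower panel). In the upper panel E2 mouse 3 and BZA mouse 1 are high for all 5 genes, and in the lower panel CE mouse 3 stands between 4.42 and 5.66.

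The alarmins S100a8 and S100a9, whose products form calprotectin in neutrophils and monocytes, were the genes whose 4 treatment means lay farthest apart. S100a8 had values of -1.87, -1.20 and -0.49 in the Veh livers, 0.00, 1.14 and -1.44 with E2, 5.66, 0.37 and 1.49 with CE, -0.84, -0.25 and 1.48 with BZA, and -1.39, 0.35 and 1.22 with CE+BZA. One liver, CE mouse 3, was far above the rest, and E2 mouse 5, BZA mouse 1 and CE+BZA mouse 1 lay among the Veh livers. S100a9 had values of -1.69, -0.77 and -1.05 in the Veh livers, 0.00, 1.53 and -1.41 with E2, 5.62, 0.48 and 1.40 with CE, -0.88, 0.00 and 1.57 with BZA, and -1.17, 1.05 and 1.08 with CE+BZA, with the same liver at the top.

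The CE difference from Veh was 3.70 for S100a8 and 3.67 for S100a9, and without CE mouse 3 it was 2.12 and 2.11. Without E2 mouse 4 the E2 difference was 0.47 for both genes. In the same liver, genes of the neutrophil lineage were also at their highest, with Mpo at 7.69, Elane at 4.98 and Retnlg at 4.42. The mean of the 5 neutrophil markers was -1.09 to 0.13 among Veh mice, -1.08 to 0.50 with E2, 0.37 to 5.68 with CE, -0.41 to 0.97 with BZA and -1.29 to 0.85 with CE+BZA. Elane and Mpo had Veh mice above treated mice and were not raised in all 4 treatments. S100a8 and S100a9 lie on chromosome 3 within 22596 bases of each other, and no other pair of the 40 genes was within 200000 bases.

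For S100a8, E2 was lower than CE by 2.61 (log2 difference -2.61, SE 1.10, limma, unadjusted p = 0.030, FDR = 0.48). S100a8 also gave the smallest p among the 40 in CE minus BZA, 2.38 (SE 1.10, limma, unadjusted p = 0.045, FDR = 0.43), and in CE+BZA minus CE, -2.45 (SE 1.10, limma, unadjusted p = 0.040, FDR = 0.32). None passed the correction. With CE mouse 3 left out these differences were -1.03, 0.80 and -0.87, with unadjusted p = 0.28, 0.40 and 0.36 by limma.

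Lymphocyte genes formed a further group of 3. Pou2af1, a coactivator of immunoglobulin genes in B cells, had values of -3.01, -0.52 and -1.02 in the Veh livers, 0.09, 1.18 and -0.26 with E2, 1.23, -0.04 and 0.90 with CE, 0.34, 1.40 and -1.05 with BZA, and -0.71, 0.00 and 0.94 with CE+BZA. Veh mouse 1 was far below the other Veh mice, at 0 or 1 estimated read against 5 and 4, and 10 treated mice were above all Veh mice. The differences of Pou2af1 from Veh were 1.59 to 2.22. Without Veh mouse 1 they were 0.85 to 1.47. Cd2, an adhesion receptor of T and NK cells, had values of -2.36, -0.47 and -0.55 in the Veh livers, 0.56, 0.17 and -0.28 with E2, 0.04, -0.38 and 1.01 with CE, 0.00, 0.51 and -0.21 with BZA, and 0.22, -0.92 and 0.69 with CE+BZA. The lowest liver was again Veh mouse 1, at 2 estimated reads against 7 in each other Veh mouse. The differences of 1.12 to 1.35 were 0.50 to 0.73 without that mouse. Bcl11b, a transcription factor of the T cell lineage, had values of -0.11, -2.69 and -2.69 in the Veh livers, -2.59, 0.77 and 0.06 with E2, 0.93, -1.53 and 0.00 with CE, 0.00, 0.98 and -0.72 with BZA, and 0.61, -0.85 and 0.96 with CE+BZA. Veh mouse 1 was above 4 treated mice, and the differences were 1.25 to 2.08. The E2 difference was 2.11 without Veh mouse 1, 0.82 without either other Veh mouse, 0.57 without E2 mouse 4 and 2.25 without E2 mouse 3.

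Of 9 lymphocyte genes chosen after the 40 were known, 7 were in the table, and 4 were above Veh in all 4 treatments, these 3 among them. The rule itself placed these 3 there, so this share cannot be compared with that of the table, 30.5%. Of the others, Nkg7 was above Veh in all 4, and Cd3e, Cd79b and Ms4a1 were not. The mean of the 7 was -1.14 to -0.40 among Veh mice, -0.68 to 0.46 with E2, 0.09 to 0.85 with CE, -0.38 to 1.02 with BZA and -0.42 to 0.52 with CE+BZA. The B cell surface genes were not raised together: Ms4a1 was 1.71 in Veh mouse 7, its highest liver. Lymphocyte content was not measured and its part was not tested.

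Channels and adhesion molecules included the leading gene of the set. Kcnk3, an acid-sensitive background potassium channel, had the largest of the smallest differences, with 1.84 under E2, 1.73 under CE, 1.95 under BZA and 1.86 under CE+BZA. The CE difference was 1.12 without CE mouse 7. Its values were -1.43, -1.25 and -2.42 in the Veh livers, 0.00, 0.09 and 0.33 with E2, 0.09, -1.26 and 1.27 with CE, 0.64, 0.25 and -0.13 with BZA, and -0.11, -0.26 and 0.86 with CE+BZA. The groups overlapped only through CE mouse 6, at -1.26, which was just below Veh mouse 4. In estimated reads, Kcnk3 was 2, 2 and 1 in the Veh livers, 5, 5 and 8 with E2, 6, 2 and 12 with CE, 9, 7 and 5 with BZA, and 5, 5 and 10 with CE+BZA. The Veh level was thus at most 2 reads per mouse, and Veh mouse 7, at the lowest value, may have had 0 or 1. Over the 12 treated mice, the genes whose values were most like those of Kcnk3 were Cpe (Pearson r = 0.85), Acta2 (r = 0.78) and Atp1b2 (r = 0.77), and none of these is among the 40. These correlations are a description over mice that share a table and its scaling.

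Kcnab2, a regulatory subunit of voltage-gated potassium channels, differed by 1.21 to 1.72, with 11 treated mice above all Veh mice. Cadm4, an immunoglobulin-type adhesion molecule, differed by 1.24 to 2.15, and its Veh mice ranged from -2.97 to -0.24. Pkhd1l1, a large membrane protein related to fibrocystin, differed by 1.20 to 1.73, with only 7 treated mice above Veh mouse 4.

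Among enzymes of lipid and small-molecule metabolism, Alox12 led. It encodes a lipoxygenase that oxidises arachidonic acid, and its values were -0.73, -2.76 and -1.75 in the Veh livers, 0.59, 0.44 and -0.68 with E2, 0.60, 0.37 and 0.05 with CE, 0.00, 0.30 and -0.42 with BZA, and 0.68, -0.69 and -0.23 with CE+BZA. All 12 treated livers were above Veh, although E2 mouse 5 and CE+BZA mouse 2 exceeded Veh mouse 1 by little. The differences were 1.86 under E2, 2.09 under CE, 1.70 under BZA and 1.66 under CE+BZA.

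Lpin1 encodes lipin, which makes diacylglycerol from phosphatidic acid on the way to triglyceride and also acts as a transcriptional coactivator in fasting. Its values were -1.24, -0.38 and -1.69 in the Veh livers, 0.32, -0.24 and 0.74 with E2, -0.13, 0.00 and 0.28 with CE, 1.42, -0.47 and 0.76 with BZA, and 1.39, 2.38 and -0.11 with CE+BZA. BZA mouse 3 was the treated mouse that lay below a Veh mouse, and CE+BZA mouse 2 was the highest liver. The differences from Veh were 1.16 to 2.32, with the largest under CE+BZA. Lpin1 gave the smallest p among the 40 when CE+BZA was compared with the mean of CE and BZA (limma, unadjusted p = 0.12), where the smallest FDR among the 40 was 0.54.

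Isyna1, the first enzyme of inositol synthesis, had values of -1.34, -0.84 and -2.35 in the Veh livers, -0.74, 0.57 and -0.87 with E2, 2.83, -0.63 and -0.29 with CE, 0.21, 0.64 and 1.53 with BZA, and 0.00, 3.15 and 2.16 with CE+BZA. It was above 2 in CE mouse 3 and in CE+BZA mice 2 and 3, and E2 mouse 5 lay below Veh mouse 4. The differences from Veh were 1.16 to 3.28, with the largest under CE+BZA, and the CE difference was 1.05 without CE mouse 3. CE+BZA exceeded E2 by 2.12 (SE 0.89, limma, unadjusted p = 0.029, FDR = 0.31), the smallest p of the 40 in that comparison, which did not pass the correction.

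Car11, a carbonic anhydrase relative without catalytic activity, had values of -1.84, -1.66 and -0.84 in the Veh livers, 0.58, -0.72 and 0.00 with E2, 0.90, -1.67 and 0.85 with CE, 1.51, -0.07 and 0.16 with BZA, and 1.47, -0.57 and 0.77 with CE+BZA. CE mouse 6 fell among the Veh livers, and the other 11 treated mice were above them, with differences of 1.40 to 2.00. Lpcat4, an acyltransferase that remodels phospholipids, differed by 1.04 to 1.37, with E2 mouse 3 and BZA mouse 4 within the Veh range.

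Receptors and signalling proteins made up a group of 6. Egfr, the receptor for epidermal growth factor and abundant on hepatocytes, had values of -1.99, -1.31 and -1.65 in the Veh livers, 0.13, -0.12 and 0.00 with E2, 1.69, -0.34 and 0.43 with CE, -1.32, -0.45 and 0.78 with BZA, and 0.29, 1.63 and 0.32 with CE+BZA. BZA mouse 1 lay within the Veh range and the other 11 treated mice were above it. The differences were 1.65 under E2, 2.24 under CE, 1.32 under BZA and 2.40 under CE+BZA, and that under BZA was 0.77 without BZA mouse 4. CE+BZA exceeded BZA by 1.08 (SE 0.62, limma, unadjusted p = 0.10, FDR = 0.62), which was the smallest p of the 40 in that comparison.

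Mcf2l, a guanine nucleotide exchange factor, had values of -1.18, -1.92 and -3.10 in the Veh livers, 0.00, -1.36 and -1.35 with E2, 1.87, -0.61 and 0.18 with CE, 0.11, 0.67 and 1.51 with BZA, and -1.71, 1.44 and 0.18 with CE+BZA. E2 mice 4 and 5 and CE+BZA mouse 1 lay within the Veh range, and the differences from Veh were 1.16 to 2.83. E2 was lower than BZA by 1.67 on the log2 scale (difference -1.67, SE 0.80, limma, unadjusted p = 0.054, FDR = 0.45), the smallest p of the 40 for those treatments, and here too the correction was not passed.

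Ppm1j, a serine/threonine protein phosphatase, had values of -0.31, -1.57 and -1.75 in the Veh livers, 1.35, -0.56 and 0.00 with E2, 1.32, 0.74 and 0.68 with CE, 1.10, -0.12 and -0.20 with BZA, and -0.18, 1.24 and 1.01 with CE+BZA. E2 mouse 4 was the only treated mouse below a Veh mouse, and the differences were 1.47 to 2.12. The ephrin receptors Ephb2 and Ephb6 differed from Veh by 1.26 to 1.54 and 1.03 to 1.83, and Veh mouse 1 lay at the overall median for Ephb6, above 5 treated mice. Sstr2, a somatostatin receptor, was at the lowest value in 5 mice, of which Veh mice 1 and 7 were a part, and differed by 1.16 to 1.52.

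Regulators of transcription were few. Mdfi, an inhibitor of MyoD-type transcription factors, had values of -2.09, -0.92 and -2.09 in the Veh livers, 0.33, -0.90 and 0.47 with E2, 0.16, 0.08 and -0.40 with CE, -0.20, 0.00 and -0.12 with BZA, and 1.22, 0.07 and 0.45 with CE+BZA. All treated mice were above all Veh mice, but E2 mouse 4, at -0.90, and Veh mouse 4, at -0.92, had 2 estimated reads each. The reads of all mice were 1, 2 and 1 in the Veh livers, 5, 2 and 7 with E2, 5, 4 and 3 with CE, 4, 5 and 4 with BZA, and 10, 5 and 6 with CE+BZA, and the differences from Veh were 1.59 to 2.28. Irx3, an iroquois homeobox factor, differed by 1.26 to 1.66, with E2 mouse 3 and CE mouse 3 within the Veh range. Ldoc1l, now named Rtl6 and derived from a retrotransposon, differed by 1.37 to 1.78 and separated all treated from all Veh mice, with estimated reads of 2, 2 and 1 in the Veh livers, 4, 4 and 5 with E2, 10, 4 and 4 with CE, 5, 5 and 4 with BZA, and 5, 9 and 4 with CE+BZA.

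Among secreted proteins, Tff3 encodes a trefoil peptide of mucosal surfaces and is a known estrogen target in breast cells. Its values were -2.17, -2.17 and -1.17 in the Veh livers, 0.93, 3.67 and -2.17 with E2, 1.57, 0.00 and -2.17 with CE, 0.53, 1.06 and 1.80 with BZA, and -1.18, 1.38 and -0.63 with CE+BZA. E2 mouse 5 and CE mouse 7 were at the lowest value together with Veh mice 1 and 4, while E2 mouse 4 was the highest. The mean differences were 2.65 under E2, 1.63 under CE, 2.96 under BZA and 1.69 under CE+BZA. Single livers carried much of them: the E2 difference was 1.22 without E2 mouse 4 and 4.14 without E2 mouse 5, the CE difference 0.75 without CE mouse 3 and 2.62 without CE mouse 7, and the CE+BZA difference 0.93 without CE+BZA mouse 2. The reads were estimated at 1, 0 and 2 in the Veh livers, 8, 50 and 1 with E2, 14, 4 and 0 with CE, 7, 11 and 16 with BZA, and 2, 13 and 3 with CE+BZA. Of 25 estrogen receptor and estrogen-responsive genes, 9 were in the table, and Tff3 was the only one of the 40. Tff3, Socs3 and Igfbp1 were above Veh in all 4 treatments, and none of the 9 was below Veh in all 4. Greb1, a further estrogen target, was at its lowest value in 11 mice and differed by 0.06 under E2, 1.31 under BZA and 0.00 under CE and CE+BZA. Htra4, a secreted serine protease, differed by 1.02 to 2.69, and its smallest difference, under BZA, included BZA mouse 1 at -2.90, below all Veh mice. No Veh mouse shared that lowest value. Without BZA mouse 1 the BZA difference was 2.07, and without BZA mouse 3 it was -0.0032.

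The remaining genes serve proteolysis, the cytoskeleton and protein folding. The gene listed as ENSMUSG00000070923, which the annotation names Klhl9 and which encodes an adaptor of a ubiquitin ligase, had values of -4.08, 0.00 and -3.83 in the Veh livers, -0.90, 0.70 and -2.99 with E2, 1.20, 0.51 and -0.45 with CE, 0.64, 0.62 and -4.08 with BZA, and 0.74, 0.43 and -1.54 with CE+BZA. Veh mouse 4 was at the overall median, above 5 treated mice, and BZA mouse 4 was at the lowest value with Veh mouse 1. The differences were 1.57 to 3.06. The BZA difference was 0.97, 3.01 and 1.10 without Veh mice 1, 4 and 7, and 3.27 without BZA mouse 4. Sdf2l1, a component of a chaperone complex of the endoplasmic reticulum, was the gene whose treatments were most alike. Its values were -1.44, -1.20 and -0.94 in the Veh livers, 0.13, 0.05 and -0.24 with E2, 0.71, -0.39 and 0.00 with CE, -1.07, 0.43 and 0.50 with BZA, and 0.34, -0.22 and 0.31 with CE+BZA. The 4 differences lay between 1.14 and 1.33, and BZA mouse 1 was within the Veh range.

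Capn11, a calpain protease known from testis, was at its lowest value in 7 mice and reached 4.85 in E2 mouse 5, with differences of 1.14 to 3.01. Slain1, which promotes microtubule growth, differed by 1.28 to 2.29. Kif12, a kinesin motor, differed by 1.10 to 1.77, and Espn, an actin-bundling protein, by 1.0002 to 1.48. The gene 1700028J19Rik differed by 1.20 to 1.78, with 11 treated mice above all Veh mice.

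Low read numbers lay behind many of these values. Whole reads could be estimated for 18 of the 40 genes, those for which at least 13 of the 15 mice fell within 0.05 of a whole number. For every gene, an estimate of 1 read in a mouse at the lowest value can stand for 0 or 1 read. For 12 of the 18, no Veh mouse had more than 5 reads, and for 17 every Veh mouse had fewer than 10. For genes without a shared lowest value, the search went up to a median of 64 normalised counts and took the smallest scale that fitted. The 18 had medians of 2.69 to 12.54, so low Veh reads follow in part from which genes could be estimated. The same counts over the table were not made. At 1 or 2 reads a change of 1 read is a change of 2-fold or near it. The other 22 genes gave no whole-read scale, and their reads were not estimated. Among them Capn11, Sstr2, Pkhd1l1, Kif12 and the gene ENSMUSG00000070923 had a lowest value shared by at least 2 mice, a mark of low counts. Capn11 was at it in 7 mice and Sstr2 in 5. For Capn11 this value was -0.17, close to the gene's median of 0.

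**Figure D4:**
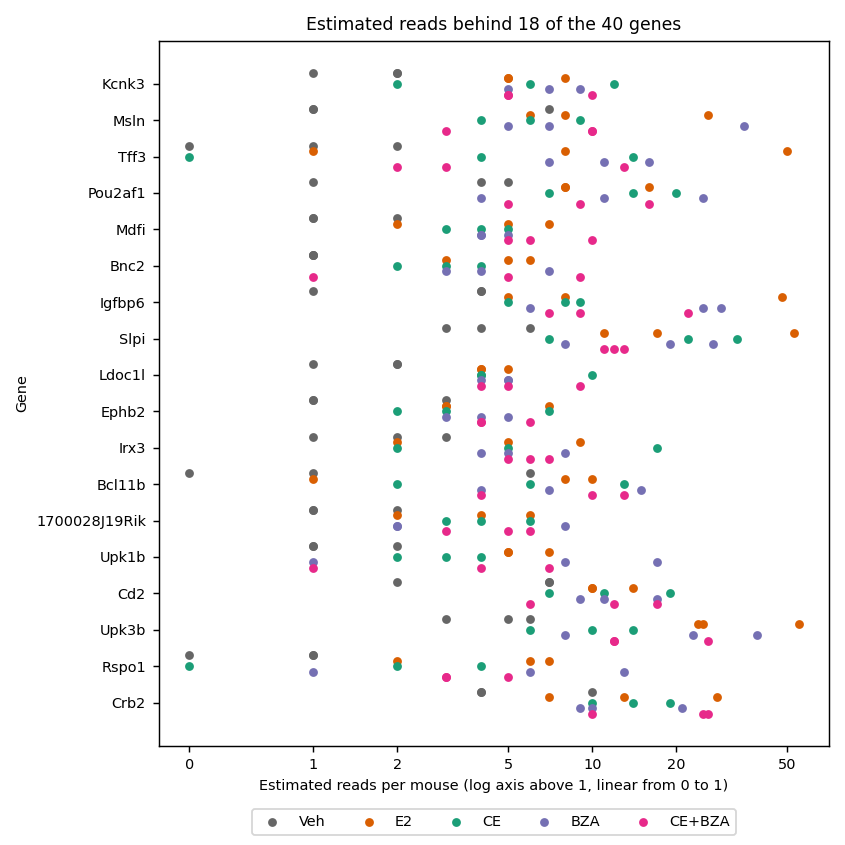
Estimated reads in each of the 15 mice (points, coloured by group) for the 18 genes whose values had a whole-read spacing. The axis is logarithmic above 1 and linear from 0 to 1. Veh points lie at or below 10 for all 18 genes, and the highest points, at 48 to 55 reads, belong to E2 mice for Igfbp6, Tff3, Slpi and Upk3b.

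Near the threshold, Espn (smallest difference 1.0002), Crb2 (1.001) and Rspo1 (1.016) were the last genes inside, and Gm14453 (0.991), Smtnl2 (0.991) and AC160982.1 (0.986) were the first outside. Leaving out 1 mouse at a time and applying the rule again, 8 of the 40 genes were kept every time: Kcnk3, Alox12, Msln, Mdfi, Bnc2, Car11, Slpi and Ldoc1l. The other 32 were lost without at least 1 mouse, and Espn and the gene ENSMUSG00000070923 were each lost without any 1 of 5 mice. The number of genes that met the rule was 68 without Veh mouse 1, 104 without Veh mouse 4 and 66 without Veh mouse 7, and 34 to 49 without any other mouse. Of the 40, there were 29, 33 and 27 left without these Veh mice and 33 to 39 without a treated mouse. The count of genes with all treated mice above all Veh mice, 6 of the 40, was 13 without Veh mouse 1, 13 without Veh mouse 4 and 9 without Veh mouse 7. Leaving out a mouse can only keep or raise this count. All 4 differences of a gene share the same 3 Veh mice. Of the 160 differences of the 40 genes, 46 moved by over 1.5 times without 1 treated mouse and 32 without 1 Veh mouse. Without CE mouse 3 and BZA mouse 1 together, a choice made after the data were seen, 35 genes met the rule, 30 of them among the 40.

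**Figure D5:**
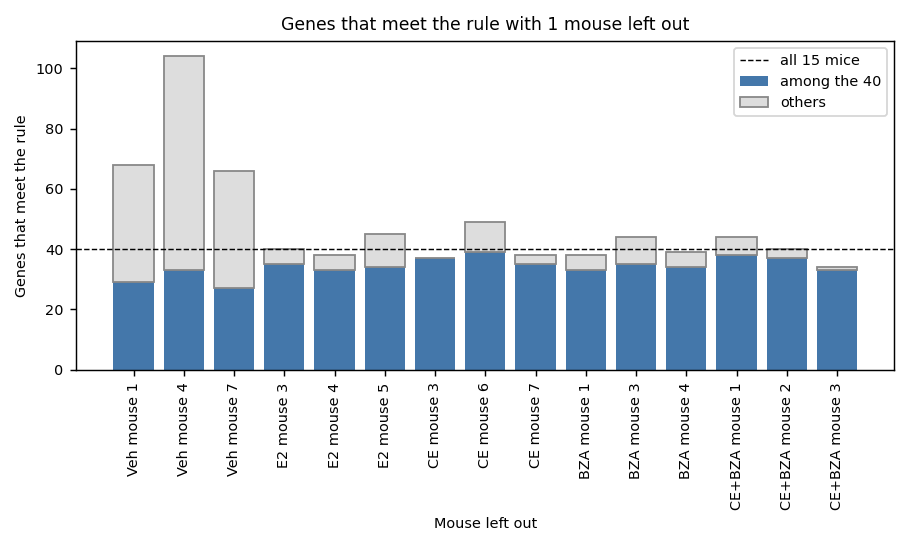
Number of genes that met the rule with 1 mouse left out at a time (x axis), split into genes among the 40 and others. The dashed line marks 40. The bars without a Veh mouse reach 66 to 104, and those without a treated mouse 34 to 49.

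The 4 treatments were then compared with one another within the 40 genes. E2 and CE also differed in how the ligand was delivered, which cannot be told apart from the ligand here. The rule placed a lower bound on every treatment mean, so these comparisons are not fully independent of it, and the counts are given beside those of the table. By limma, 0 of the 40 genes passed an FDR under 0.05 with a fold change above 2 in any of the 6 comparisons. In the table the passing share was 0.0393% for E2 against CE, 0.275% for E2 against BZA, 0% for CE against BZA, 0.157% for CE+BZA against E2, 0.0393% for CE+BZA against CE and 0% for CE+BZA against BZA.

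At an unadjusted p under 0.05 with the same fold change, limma gave 3 of the 40 genes for E2 against CE (S100a8, S100a9 and Upk3b, where 9.08% of the table passed) and 0 for E2 against BZA (11.1%). It gave 1 for CE against BZA (S100a8, 11.2%), 1 for CE+BZA against E2 (Isyna1, 13.2%), 1 for CE+BZA against CE (S100a8, 14.4%) and 0 for CE+BZA against BZA (8.76%). An ordinary linear model without moderated variances also called 0 genes after correction, and gave 1 of these 6 at the unadjusted level. The standard error of a difference between treatments was 0.49 to 1.30 over the 40 genes, with a median of 0.65.

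The combination was also set against its parts. CE+BZA was above both CE and BZA for 13 of the 40 genes and below both for 12. The same shares over the table were not counted, and nothing is drawn from these counts. Against the mean of CE and BZA, the median difference was 0.11 (median SE 0.56), where it was 0.01 over the table. With limma 0 of the 40 genes passed after correction (0% of the table) and 0 at an unadjusted p under 0.05 with a fold change above 2 (10.1%).

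Apart from the mesothelial and lymphocyte lists, which were added once the 40 genes were known, the lists held none of the 40 beyond Tff3, S100a8 and S100a9. Junb and listed genes whose symbols start with Cyp, Sult, Abc, Gst or Slc were left out by name and could not be among the 40. None of those genes rose by more than 1 in all 4 treatments. Of the genes listed in the table, there were 16 of 22 female-biased and 9 of 19 male-biased liver genes, 9 of 18 immediate early genes, 6 of 17 clock genes, 7 of 18 stress genes and 3 of 19 cholesterol and bile acid genes. Of these, 3, 3, 6, 5, 3 and 1 were above Veh in all 4 treatments, and 7, 1, 0, 0, 0 and 1 were below it in all 4. Over the table the shares were 30.5% and 28.9%. The marker lists of the other cell types also held none: 7 adipocyte, 2 stellate cell, 1 macrophage, 2 T and NK cell, 2 B cell, 6 erythroid, 2 bile duct and 3 pancreas genes were in the table. The mean of the 7 adipocyte markers was 0.82 to 0.99 in the Veh mice, 3.67 in BZA mouse 3 and at most 0.69 in the other 11 treated mice. Of these markers 3 were below Veh in all 4 treatments: Cfd, by -5.62 to -2.78, Plin4 and Car3. Adipoq, Plin1, Lep and Retn were at their lowest value in 11, 12, 14 and 9 mice, so the list mean does not speak for them. The mean of the 2 T and NK cell markers was -0.71 to -0.62 in the Veh mice, -1.07 in E2 mouse 3 and at least -0.29 in the other 11 treated mice. The part of these cells in the differences was not tested.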

How the data were processed

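Liver RNA-seq of 15 ovariectomized mice, 3 per group, was used. The authors called bases with Casava 1.8.2, mapped trimmed reads with TopHat 0.5 (their notes name mm10 and also hg19, with no role given), counted genes with StrandNGS 3.1 and applied DESeq normalization. The authors deposited log2 values relative to the median of each gene. The p-values, reads and lists below were computed from these values. No column was left unmatched (0). Mice were grouped by their labels.

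The 40 genes and the lists were chosen with earlier results of these data known. A 5-group model was fitted to all 2545 genes and 15 mice (limma 3.58.1 in R 4.3.3), with Benjamini-Hochberg adjustment per comparison, and a call needed an FDR under 0.05 and a fold change above 2. The mice were housed singly, and the labels name no batch. The script was tested on simulated data. Every gene is named, and mouse values are given for the 12 genes with the largest smallest difference, those with the smallest p in a comparison, those with the most and least alike treatments, and members of the lists. Other scalings, filters, models and left-out mice were tried. Python 3.11.15 and matplotlib 3.10.9 were used. Reads were estimated by finding the smallest scale at which values of at least 13 of 15 mice were whole within 0.05. For genes with at least 2 mice at the lowest value, that value set the scale. The search was checked on these 1045 genes. It found a scale for 617, of which 601 lay within 0.03 (log2) of the scale of the lowest value. Genes with fewer mice at the lowest value could not be checked in this way.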

Additional observations from a re-analysis of the deposited data

How the results depend on the processing

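The rule gave 40 genes as deposited, 67 with group medians, of which 28 were among the 40, and 9 with a difference above 1.5. Leaving out 1 mouse gave 34 to 104 genes by the rule and 6 to 13 genes of the 40 with all treated above all Veh mice. The latter count can only stay or rise when a mouse is left out. Centring each mouse gave 37 genes, quantile normalization 36, of which 31 were among the 40, and removing genes with at least 2 mice at the lowest value left 28. The cause of these shifts was not tested. No gene of the 40 passed the correction between treatments or against the mean of CE and BZA under any alternative run (0 in each), and at an unadjusted p there were 6 combinations of gene and comparison between treatments, from 4 genes. That number was 13 with the replicate block, 1 with an ordinary linear model, 2 with only the 2 treatments compared, and 3 to 13 without 1 mouse. With the replicate block 0 passed the correction; mice that share a number correlated at -0.05 to 0.10 over 13 pairs, and for 2 of 12 mice the nearest mouse carried the same number, so the numbers were not taken as pairs. The smallest of the 4 differences turned to -0.0032 for Htra4 without BZA mouse 3 (1.91 without BZA mouse 1) and to -0.058 for Capn11 without CE mouse 7. With 3 mice a group, the standard error of a difference between treatments had a median of 0.65.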
